A study of Mus musculus with 4 samples.

Results

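The kidney's proximal tubule takes back most of the filtered sodium, bicarbonate, sulfate and water, and 9 genes of that work were followed here: the exchangers Slc9a3 and Slc26a1, the cotransporters Slc4a4, Slc13a1 and Slc13a3, the sodium pump subunit Atp1b1, the carbonic anhydrases Car4 and Car14, and the water channel Aqp1. They were chosen by name, and every array probe that the scanner files assign to 1 of these symbols was used. This gave 14 of 41142 probes and 9 of 21216 named genes.

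RNA from whole kidney was measured on 4 one-colour Agilent arrays, 1 array for each of 4 groups, from mice that were 8 weeks old. The mice were C57BL/6 wild type or carried the label NLRC5-/-, and were operated on in 1 of 2 ways: a sham operation, or ischemia of the left and right kidney lasting 30 min with reperfusion after it, called injured here. The NLRC5-/- mice are also listed as C57BL/6. NLRC5 is a NOD-like receptor family protein known as an activator of MHC class I genes. The reperfusion time conflicts in the labels: 48 h in the titles of the injured samples and in the design text, 24 h in every sample description. No label says how many animals an array stands for or which part of Nlrc5 was deleted, so no value here carries the spread between animals. The sample titles also carry a letter, R for wild type sham and NLRC5-/- injured and L for the other groups. It differs in every comparison within a genotype or within a treatment, and its meaning was not analysed.

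The targeted gene did not separate the genotypes. The single Nlrc5 probe read -4.08 in wild type sham, -3.77 in labelled knockout sham, -3.34 after injury in wild type and -3.62 in labelled knockout injured, all as log2 signal relative to the array's 75th percentile, which is the scale of every level below. It was well above background on all 4 arrays, at raw signals of 17.9 to 34.2. Whether the probe lies inside the deleted part is not given in the sources used here, so it may check nothing, and the arrays are called labelled knockout throughout. Both wild type arrays were on 1 slide and both labelled knockout arrays on another, so genotype and slide cannot be told apart. Each sham and injured pair shared a slide. The labelled knockout sham array also had a female pattern, with Xist at 5.20 and 4 Y-linked genes not above background, while Xist was not above background on the other 3 arrays. Every comparison with that array therefore also compares a female with a male pattern. The 75th percentile of the signal was 181.7 in wild type injured against 362.2 to 465.4 on the other arrays, and 67.3% to 74.7% of probes were well above background. All 10 proximal tubule markers were above background on all 4 arrays.

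In the proximal tubule, the sodium pump on the blood side keeps sodium low inside the cell. Slc9a3 (NHE3) on the luminal side then trades sodium for protons, membrane carbonic anhydrases on the surface interconvert bicarbonate and carbon dioxide, and Slc4a4 (NBCe1) passes bicarbonate on to the blood. Sulfate enters from the lumen with sodium through Slc13a1 (NaS1) and leaves on the blood side through Slc26a1 (Sat1), while Aqp1 lets water follow.

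After injury in wild type, 6 of the 9 genes were lower by at least 2-fold and none was higher by that much. Car4 stood at 5.56% of its sham signal, Car14 at 15%, Slc26a1 at 19.7% and Aqp1 at 20.2%. Slc4a4 stood at 37.2% and Slc9a3 at 38.5%. The fold of 2 was passed in the lower direction by 15.1% of the 16729 genes compared and in the higher direction by 14.6%. The median difference of the 9 genes was -1.43 on the log2 scale, against -0.01 for all genes. On the labelled knockout arrays 1 of the 9, Slc13a3, was lower by 2-fold or more, against 4.22% of 17095 genes, and none was higher by that much, against 4.94%. The median of the 9 was 0.00 against 0.02 for all genes. A technical yardstick for these differences is the SD between repeated spots of the same probe, from 168 other probes: 0.17 for a wild type injury difference and 0.11 for a labelled knockout one. It leaves out every difference between animals.

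**Figure D1:**
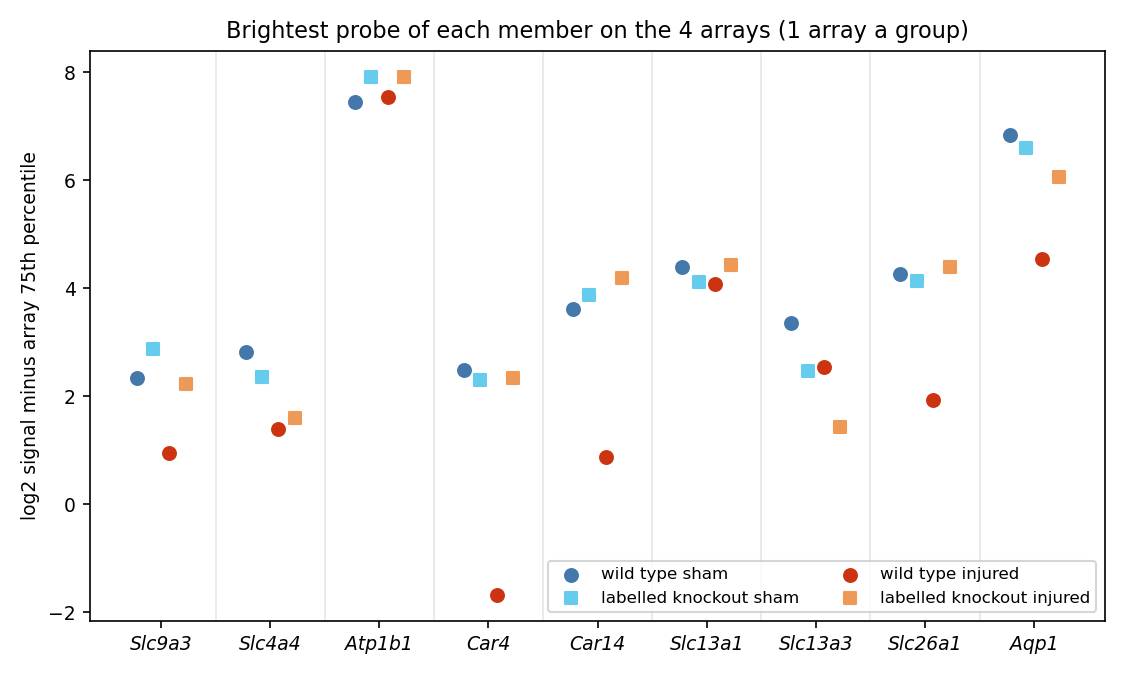
Level of the brightest probe of each of the 9 genes on each of the 4 arrays, as log2 signal minus the array's 75th percentile; circles are wild type, squares labelled knockout, and each point is 1 array, so there is no error bar. The wild type injured point is the lowest of the 4 for 7 genes, most widely for Car4 at -1.67, and is not for Atp1b1 and Slc13a3. For Slc13a1 it is lowest only narrowly, at 4.08 against 4.11 in labelled knockout sham.

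The stretches upstream of the start sites are shown for 5 genes to set the steepest wild type differences (Car4, Car14, Slc26a1) beside the gene with the smallest one (Atp1b1) and the gene whose injured arrays were closest (Slc4a4). Each run is the 250 bases before the annotated start, 5′ to 3′ on the gene's strand, from RefSeq on GRCm38.p6. Capitals mark an HNF4 core motif, the only searched motif found. HNF1 and HNF4 are liver and kidney transcription factors of the proximal tubule.
Car4, chr11:84957504-84957753, plus strand: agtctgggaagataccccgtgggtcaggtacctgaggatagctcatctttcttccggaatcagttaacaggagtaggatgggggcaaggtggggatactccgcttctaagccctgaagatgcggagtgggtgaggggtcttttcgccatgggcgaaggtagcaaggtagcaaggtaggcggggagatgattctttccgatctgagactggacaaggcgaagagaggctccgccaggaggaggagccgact
Car14, chr3:95904686-95904935, minus strand: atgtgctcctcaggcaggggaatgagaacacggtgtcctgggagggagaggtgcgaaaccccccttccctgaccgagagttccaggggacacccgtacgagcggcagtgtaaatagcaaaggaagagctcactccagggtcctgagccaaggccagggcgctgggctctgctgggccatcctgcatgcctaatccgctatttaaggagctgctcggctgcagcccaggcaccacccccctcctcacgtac
Slc26a1, chr5:108674797-108675046, minus strand: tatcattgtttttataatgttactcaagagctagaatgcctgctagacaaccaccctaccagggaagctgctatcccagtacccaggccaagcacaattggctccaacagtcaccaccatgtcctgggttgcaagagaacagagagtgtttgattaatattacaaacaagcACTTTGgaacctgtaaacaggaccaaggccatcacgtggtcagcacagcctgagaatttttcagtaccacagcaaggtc
Slc4a4, chr5:88887010-88887259, plus strand: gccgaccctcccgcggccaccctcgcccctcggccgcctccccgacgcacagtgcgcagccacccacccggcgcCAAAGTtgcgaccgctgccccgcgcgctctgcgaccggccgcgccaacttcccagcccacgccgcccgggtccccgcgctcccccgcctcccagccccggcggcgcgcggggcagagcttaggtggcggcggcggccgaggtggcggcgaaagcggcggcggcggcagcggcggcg
Atp1b1, chr1:164458356-164458605, minus strand: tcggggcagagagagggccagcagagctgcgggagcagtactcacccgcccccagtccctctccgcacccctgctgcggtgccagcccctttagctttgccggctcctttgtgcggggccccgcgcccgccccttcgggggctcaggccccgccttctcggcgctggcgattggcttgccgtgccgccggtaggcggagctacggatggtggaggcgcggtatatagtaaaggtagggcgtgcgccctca
The search covered 10 windows of 300 bases for 8 of the 9 genes, and Slc13a1 was not matched. The HNF1 core motif GTTAAT, or ATTAAC on the other strand, was in 0 of the 10 windows and in 7.1% of all 32851 promoter windows. The HNF4 core motif CAAAGT, or ACTTTG, was in 2 of the 10 and in 14.4% of all windows. The 2 windows with it belong to Slc4a4, where it begins 176 bases before the start, and to Slc26a1, where it begins 79 bases before. Slc4a4 and Slc26a1 each have another window, without the motif and with 48.8% and 46.8% G or C. For both genes the window with the motif is shown, and which start is used in kidney was not analysed. These genes did not share a pattern: Slc26a1 was far higher on the labelled knockout than on the wild type injured array and Slc4a4 was close to even. The stretches shown also differed in base composition, with 82.0% G or C in the one shown for Slc4a4, 70.4% for Atp1b1, 62.0% for Car14, 56.4% for Car4 and 46.0% for Slc26a1, against a median of 52.4% over all windows.

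Slc9a3, the luminal sodium/proton exchanger NHE3, was measured by 2 probes. The brightest (A_51_P350294, mm9 chromosome 13, 74306729 to 74306788) read 2.34 in wild type sham, 0.96 in wild type injured, 2.87 in labelled knockout sham and 2.23 in labelled knockout injured. Both injured arrays lay below both sham arrays, though labelled knockout injured was only narrowly below wild type sham. The difference was -1.38 in wild type and -0.64 in labelled knockout. Between the injured arrays the labelled knockout was 2.41-fold higher, a log2 difference of 1.27. The other probe (A_52_P82701, 74300566 to 74301172) did not repeat the wild type difference: it read -3.21 in wild type sham and -3.38 in wild type injured, at a raw signal of 17.5 on the latter. It stood at -2.21 and -2.53 on the labelled knockout arrays. Both probes were higher on the labelled knockout array within each treatment, by 0.54 and 1.0 in sham and 1.27 and 0.84 in injured kidneys.

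Slc4a4, the sodium bicarbonate cotransporter NBCe1, had 3 probes on chromosome 5 that moved alike. The brightest (A_52_P457567, mm9 89668602 to 89668661) read 2.83 in wild type sham, 1.40 in wild type injured, 2.35 in labelled knockout sham and 1.60 in labelled knockout injured. Both injured arrays were below both sham arrays at this probe. The wild type difference was -1.43 there, and -1.24 and -1.71 at the other 2 probes. The labelled knockout difference was -0.75, and -0.38 and -0.64 at the others. The injured arrays were nearly level, the labelled knockout being higher by 0.19 at the brightest probe and by 0.33 and 0.20 at the others. Of the 9 genes this was the smallest difference between the injured arrays, and it was close to the duplicate-spot SD of 0.15.

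Atp1b1, the beta 1 subunit of the sodium pump, was nearly flat. Its probe (A_51_P151484, mm9 chromosome 1, 166368263 to 166368322) read 7.46 in wild type sham, 7.54 in wild type injured, 7.91 in labelled knockout sham and 7.92 in labelled knockout injured. The injury difference was 0.08 in wild type and 0.00 in labelled knockout, both within the duplicate-spot SD. The sign in wild type depended on the scaling: it was -0.68 in the authors' value table, -0.09 after normexp background correction and -0.01 with median scaling. The 2 labelled knockout arrays were the higher pair, by 0.46 in sham and 0.38 in injured kidneys.

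Car4, a carbonic anhydrase anchored to the cell surface, differed most of the 9. Its probe (A_51_P407028, mm9 chromosome 11, 84778310 to 84778369) read 2.49 in wild type sham, -1.67 in wild type injured, 2.31 in labelled knockout sham and 2.34 in labelled knockout injured. The wild type injured array stood alone, and the other 3 lay within a narrow band. The wild type difference was -4.17, an 18-fold lower signal, while the labelled knockout difference was 0.03. The labelled knockout injured array was 16.2-fold above the wild type injured one. These sizes depended on the background correction: with the 2 normexp fits the wild type difference was -3.40 and the difference between the injured arrays 2.86 and 3.29 on the log2 scale, in place of 4.02. The raw signal on the wild type injured array was 56.98, still well above background.

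Car14, a second surface carbonic anhydrase, spans the membrane. Its probe (A_51_P175424, mm9 chromosome 3, 95701859 to 95701918) read 3.62 in wild type sham, 0.88 in wild type injured, 3.87 in labelled knockout sham and 4.20 in labelled knockout injured. Again the wild type injured array was the one apart. The wild type signal was 6.65-fold lower after injury, a difference of -2.73, and the labelled knockout signal was 0.32 higher. The injured arrays differed by 3.31, or 9.93-fold.

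Slc13a1, the luminal sodium sulfate cotransporter NaS1, changed little at its brightest probe. That probe (A_51_P395695, mm9 chromosome 6, 24038378 to 24038437) read 4.40 in wild type sham, 4.08 in wild type injured, 4.11 in labelled knockout sham and 4.43 in labelled knockout injured. The difference was -0.32 in wild type and 0.32 in labelled knockout. The second probe (A_52_P223414, 24055483 to 24055542) went the other way in wild type, from -2.83 to -1.14, a difference of 1.69. It went from -2.22 to -1.61 in labelled knockout. The direction for Slc13a1 in wild type thus rests on which probe is read.

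Slc13a3, a sodium dicarboxylate cotransporter (NaDC3) of the blood side, was the only one of the 9 that was lower on the labelled knockout array in both treatments. Its probe (A_51_P233768, mm9 chromosome 2, 165231321 to 165231380) read 3.35 in wild type sham, 2.54 in wild type injured, 2.46 in labelled knockout sham and 1.43 in labelled knockout injured. The injured array was the lower one in both genotypes, with differences of -0.81 and -1.03. The labelled knockout minus wild type difference was -0.89 in sham and -1.12 in injured kidneys, so the labelled knockout injured array stood at 0.462 of the wild type injured signal.

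Slc26a1, the sulfate anion exchanger Sat1, had 2 probes on chromosome 5. The brightest (A_52_P361462, mm9 109098994 to 109099053) read 4.27 in wild type sham, 1.93 in wild type injured, 4.13 in labelled knockout sham and 4.40 in labelled knockout injured. The other (A_51_P279914, 109099881 to 109099940) read 2.24, -1.35, 1.12 and 0.98 in the same order. Both probes were lowest in wild type injured. The wild type difference was -2.34 and -3.60, and the labelled knockout difference 0.27 and -0.14. Between the injured arrays both probes were higher in labelled knockout, 5.54-fold and 5.02-fold. They disagreed in the sham kidneys, where the brightest differed by -0.14 and the other by -1.13.

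Aqp1, the constitutive water channel of the proximal tubule, thin limb and some endothelium, was lower after injury in both genotypes, more so in wild type. Its probe (A_51_P125205, mm9 chromosome 6, 55298480 to 55298539) read 6.84 in wild type sham, 4.54 in wild type injured, 6.60 in labelled knockout sham and 6.07 in labelled knockout injured. Both injured arrays were below both sham arrays. The difference was -2.31 in wild type and -0.53 in labelled knockout, and the labelled knockout injured array was 2.90-fold above the wild type injured one.

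**Figure D2:**
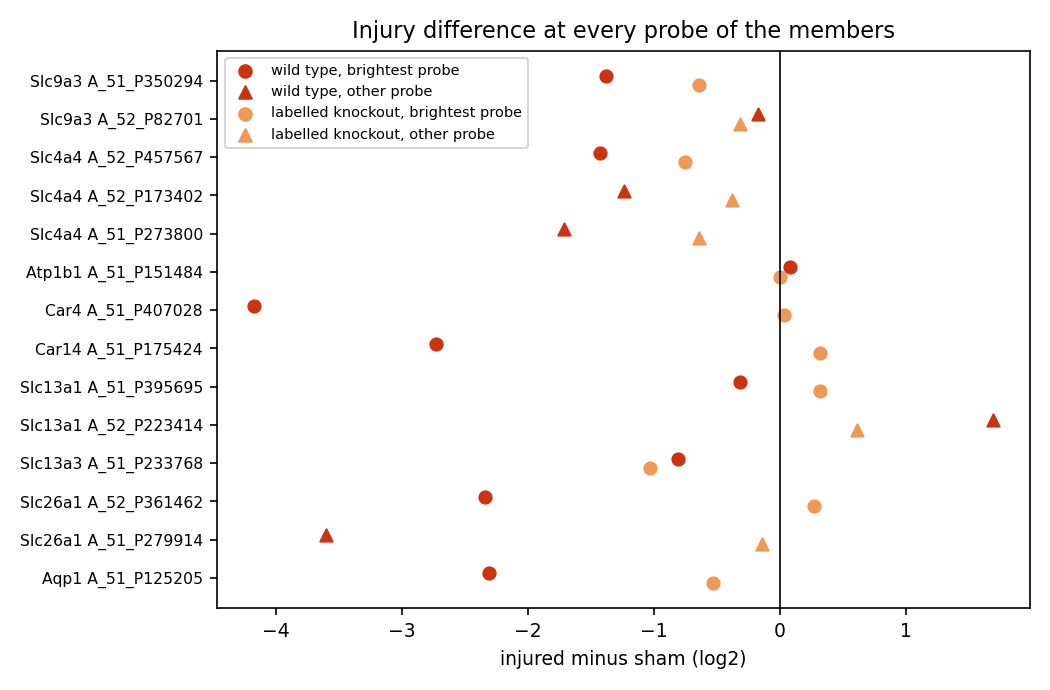
Injured minus sham log2 difference at each of the 14 probes, by gene and probe name, in wild type (red) and labelled knockout (orange); circles are the brightest probe of a gene and triangles its other probes. The 3 Slc4a4 probes lie together, whereas the second probes of Slc9a3 and Slc13a1 stand at -0.17 and 1.69 in wild type against -1.38 and -0.32 at the brightest.

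Ordered by their wild type difference, Car4 was lowest, then Car14, then Slc26a1 and Aqp1, then Slc4a4 and Slc9a3, then Slc13a3, then Slc13a1, then Atp1b1. Neighbours named together did not differ by more than the duplicate-spot SD. In labelled knockout the order was another one: Slc13a3 was lowest at -1.03, then Slc4a4, Slc9a3 and Aqp1 between -0.75 and -0.53. The other 5 lay between 0.00 and 0.32. Being lowest in wild type injured was seen for 7 of the 9 genes and for 32.1% of 14998 genes above background on every array. Slc13a1 is among the 7 only narrowly, at 4.08 against 4.11 in labelled knockout sham, and its second probe was highest in wild type injured. Both injured arrays lay below both sham arrays for Slc9a3, Slc4a4 and Aqp1, 3 of 9 against 23.7%. Slc9a3 is among them only narrowly, at 2.23 in labelled knockout injured against 2.34 in wild type sham. Its second probe did not show the pattern, at -2.53 against -3.21 on those arrays. A level lower after injury in wild type and higher in labelled knockout was seen for Car4, Car14, Slc13a1 and Slc26a1, 4 of 9 against 16.0%. The labelled knockout value of Car4, 0.03, was within the duplicate-spot SD. With normexp background correction fitted on all spots, all 4 labelled knockout values were below 0 (-0.37, -0.24, -0.19 and -0.18), so the count was 0. Fitted without flagged spots, all 4 stayed above 0 (0.07, 0.30, 0.36 and 0.37). A 2-fold lower level in both genotypes was seen for 0 of 9 and for 1.42% of genes.

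**Figure D3:**
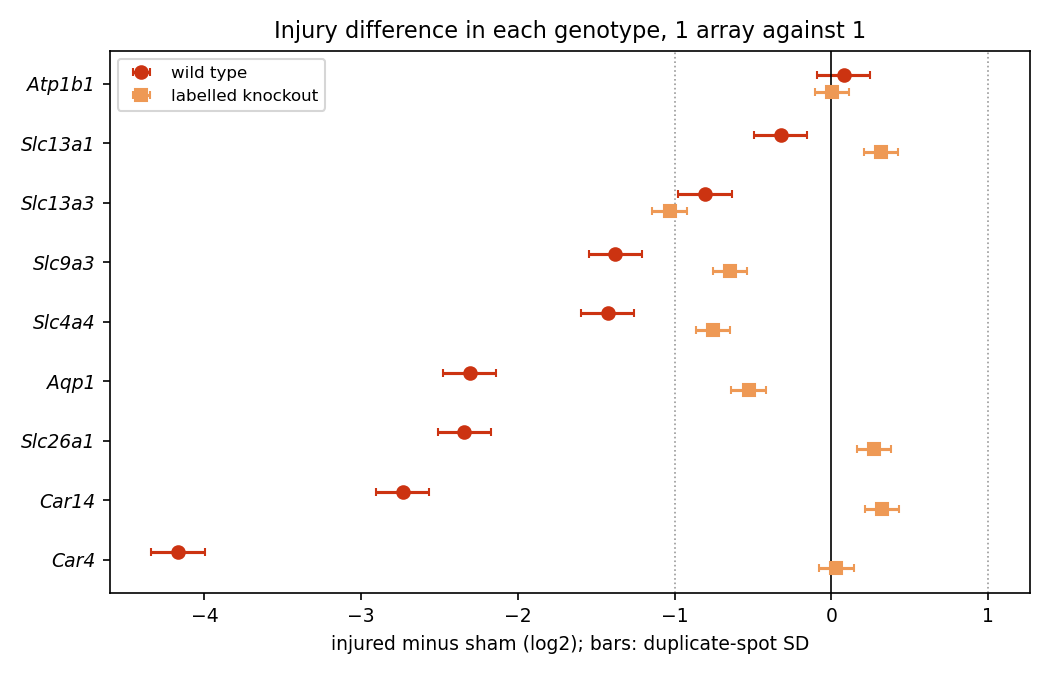
Injured minus sham log2 difference of the 9 genes at their brightest probe, ordered by the wild type value, in wild type (circles) and labelled knockout (squares), 1 array against 1; bars are the duplicate-spot SD, a technical error only, and dotted lines mark 2-fold. Car4 has the widest gap, -4.17 against 0.03, and Slc13a3 and Atp1b1 the narrowest.

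Between the injured arrays, 8 of the 9 genes were higher in labelled knockout by any amount, against 52.8% of 16801 genes. At least 2-fold higher were 5 of them (Car4, Car14, Slc26a1, Aqp1, Slc9a3), and Slc13a3 was lower by more than 2-fold. The shares of all genes at 2-fold were 11.2% higher and 8.15% lower. The smaller differences changed sign under some settings. With normexp fitted on all spots, Slc4a4 (0.19) and Atp1b1 (0.38) were -0.11 and -0.13. Slc13a1 (0.35) was -0.06 with probes averaged and -0.47 at its second probe. The median of the 9 was 1.27 against 0.04 for all genes. In sham kidneys none of the 9 reached 2-fold, where 5.54% of 17042 genes were higher and 3.69% lower by that much, and their differences ran from -0.89 for Slc13a3 to 0.54 for Slc9a3. The comparison of the injured arrays uses the same 2 arrays as the injury comparisons, so it is no separate observation. The difference between the 2 injury responses was at least 2-fold for 4 genes: 4.20 for Car4, 3.06 for Car14, 2.62 for Slc26a1 and 1.78 for Aqp1. Of 14998 genes, 9.79% had a response difference of that size in this direction, and 9.35% in the other, which 0 of the 9 had. With 1 array a group this difference has no test. Set against the wild type sham array, which shares the male pattern, the labelled knockout injured array differed by -0.15 for Car4, 0.58 for Car14, 0.13 for Slc26a1 and -0.77 for Aqp1. The other 5 stood at -1.92 for Slc13a3, -1.23 for Slc4a4, -0.11 for Slc9a3, 0.02 for Slc13a1 and 0.46 for Atp1b1.

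A test was possible only by pooling: limma fitted treatment and genotype as additive terms over the 4 arrays, with 1 residual degree of freedom. None of 16620 genes passed an adjusted p of 0.05 (Benjamini-Hochberg) for injury or for genotype. At an unadjusted p under 0.05, 1013 genes were lower and 857 higher for injury, and 350 lower and 557 higher for genotype. Slc13a3 had a limma injury effect of -0.92 (SE 0.26, unadjusted p 0.0313, adjusted p 0.431), lower in both genotypes. Slc4a4 stood at -1.09 (SE 0.31, limma adjusted p 0.431) and Slc9a3 at -1.01 (SE 0.32, limma adjusted p 0.431), each also lower in both. With 1 array left out the effect ran from -1.48 to -0.36 for Slc13a3, from -1.33 to -0.85 for Slc4a4 and from -1.65 to -0.38 for Slc9a3. The lowest and highest came without wild type injured and labelled knockout injured for Slc13a3, and the reverse for Slc9a3. These 3 of the 9 had an unadjusted p under 0.05, against 6.1% of genes on the lower side, and 0 of the 9 on the higher side, against 5.16%. Car4 had a larger effect, -2.07, and a larger SE, 1.16 (limma adjusted p 0.47). An additive fit counts unlike responses in the 2 genotypes as error. Aqp1 stood at -1.42 (SE 0.54, limma adjusted p 0.431). For genotype, only Slc13a3 had an unadjusted p under 0.05, at -1.0 (SE 0.26, p 0.0243, limma adjusted p 0.767), against 2.11% of genes on the lower side and 3.35% on the higher. Normexp background correction changed these counts. Fitted on all spots, 4461 of 16620 genes passed the adjusted threshold for injury, 7 of the 9 among them, and 99 for genotype, with Car14. That fit had a background mean of -225 on the labelled knockout injured array. Fitted without flagged spots, 731 genes passed for injury, with Car4, Car14 and Aqp1, and 128 for genotype, with Car4 and Car14. Without the labelled knockout injured array, the largest injury effects of the 9 were -4.08 for Car4, -2.86 for Car14, -2.27 for Slc26a1 and -2.18 for Aqp1. Without the wild type sham array, the largest genotype effects were 4.0 for Car4 and 3.15 for Car14. Those fits set a lone array against 2 that differ in the other factor, so the spread comes from that pair and the lone array is assumed to vary alike.

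The rest of the transport pathway was read from 32 further genes in 6 lists. After injury in wild type 9 of the 32 were lower and 0 higher by at least 2-fold, beside 15.1% and 14.6% of all genes. In labelled knockout 1 of the 32 was lower, beside 4.22%. Between the injured arrays 6 were higher and 1 lower, beside 11.2% and 8.15%. Their median wild type difference was -0.55 and labelled knockout difference -0.15. None of them passed the limma threshold. The genes named below were taken from the up to 4 of each list with the widest gap between the injured arrays.

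Genes that regulate or anchor NHE3 had a wild type median of -0.75 over 8, with 3 lower by 2-fold. Agtr1a, the angiotensin II type 1a receptor, stood at -2.55 in wild type and -0.21 in labelled knockout. Pdzk1 and Slc9a3r2, scaffold proteins of the brush border, stood at -1.30 and -1.23 in wild type and at -0.19 and -0.37 in labelled knockout. Ezr, which ties that scaffold to actin, went the other way, 0.60 in wild type and -0.36 in labelled knockout, with a difference of -1.23 between the injured arrays. Of the 4 other sodium pump subunits, Fxyd2, the gamma subunit, was lower by 2-fold in wild type at -1.17. Atp1b3 stood at -0.63 in wild type and -0.70 in labelled knockout, and Atp1b2 at -0.48 and 0.00.

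Among 7 other proton and bicarbonate exchangers the wild type median was 0.15, and 1 was lower by 2-fold. That was Slc9a8 (NHE8), at -1.54 in wild type and 0.15 in labelled knockout. Slc4a7 stood at 0.97 and 0.26, and Slc26a6 at -0.39 and -0.06. The 4 other carbonic anhydrases were mixed. Cytosolic Car2 stood at -0.16 in wild type and -0.70 in labelled knockout, mitochondrial Car5b at 0.78 and 0.07, and Car15 at 0.94 and -0.89. These 3 were the lower on the labelled knockout injured array, with differences of -0.99 to -0.83. The membrane enzyme Car12 stood at -1.74 and -0.53 and was 0.87 higher there. It had the direction of Car4 and Car14 in wild type and between the injured arrays, but not in labelled knockout.

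All 7 genes of sulfate and carboxylate handling were lower after injury in wild type, 2 of them by 2-fold, with a median of -0.72, where 50.5% of all genes were lower by any amount. All 7 were higher on the labelled knockout injured than on the wild type injured array, with a median of 0.40, where 52.8% of genes were higher. Papss2, which makes the activated sulfate donor, stood at -1.12 in wild type and -0.69 in labelled knockout. Slc26a11 stood at -0.70 and 0.01, and Slc13a2, the luminal dicarboxylate cotransporter NaDC1, at -0.21 and -0.38. Slc26a7 was not well above background on the wild type injured array, so its difference there is only a bound and no fold is given, though it counts among the 2-fold calls above. Of the 2 other water channels, Aqp11 stood at -1.39 in wild type and 0.19 in labelled knockout and Aqp7 at -0.52 and 0.62. Both were over 2-fold higher on the labelled knockout injured array, by 1.09 and 1.60.

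**Figure D4:**
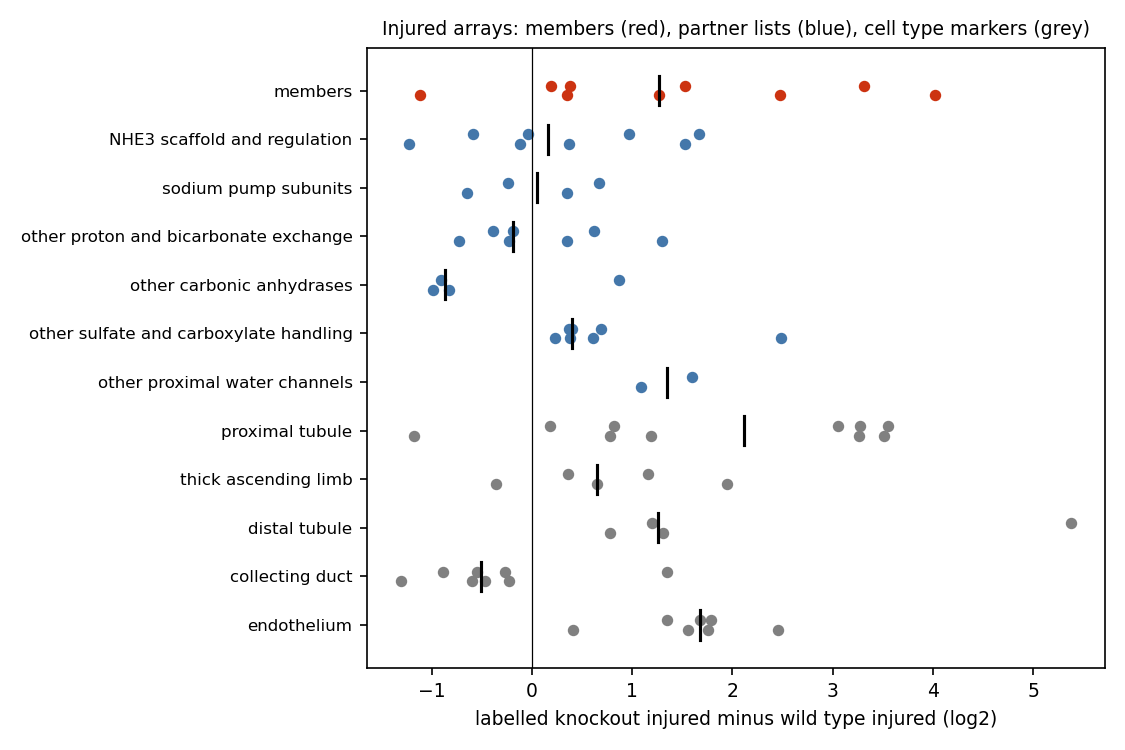
Labelled knockout injured minus wild type injured log2 difference for the 9 genes (red), 6 lists of pathway genes (blue) and 5 lists of cell type markers (grey); each point is a gene at its brightest probe and each black bar the list median, with no error bar because there is 1 array a group. The 9 genes have a median of 1.27, the proximal tubule markers 2.12, the endothelial markers 1.68 and the other carbonic anhydrases -0.87.

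Markers of cell types also differed between the arrays, and their lists did not all move like the 9 genes. Of 10 proximal tubule markers, 8 were lower by 2-fold after injury in wild type (median -2.01) and 0 in labelled knockout (median 0.16). The shares of all genes were 15.1% and 4.22%. Their summed signal, on the same log2 scale, was 8.25 in wild type injured and 10.12 to 10.28 on the other 3 arrays. Slc34a1, the phosphate cotransporter, stood at -3.88 in wild type and 0.00 in labelled knockout, Miox at -3.47 and -0.02, and the glucose transporter Slc5a2 at -3.63 and 0.32. The list was not uniform: Slc22a6 and Slc22a7, organic anion transporters, stood at 0.19 and 0.25 in wild type, and Slc22a7 at -1.18 between the injured arrays. Slc22a6 (1.02) and Slc7a13 (1.48) were higher by 2-fold in labelled knockout. The sham arrays differed too: Slc7a13 stood at -3.32 and Slc22a7 at -1.25, labelled knockout minus wild type. They were the 2 markers of this list lower by 2-fold there, and 0 were higher. The differences of Car4 and Car14 were in the range of these markers. In whole kidney RNA, fewer proximal cells and less RNA per cell cannot be told apart. Of 7 endothelial markers, 5 were lower by 2-fold in wild type and 0 in labelled knockout, with a summed signal of 3.56 in wild type injured against 5.10 to 5.61. All 7 were also higher in labelled knockout sham than in wild type sham, where 9196 of 17042 genes were higher by any amount. By 2-fold 0 of these 7 were higher, beside 5.54% of genes, and their median was 0.62 against 0.05 for all genes. Tubular injury markers summed to 6.52 and 7.31 on the wild type and labelled knockout sham arrays. On the injured ones they summed to 10.25 and 8.75, and Spp1 carried each sum. Of the 7, 6 were lower by 2-fold on the labelled knockout than on the wild type injured array, beside 8.15% of genes. Their sham levels differed too: Havcr1 stood at -5.30 and Krt20 at -2.60, labelled knockout minus wild type, and the other 5 were higher. The injury difference of Havcr1 was 3.07 in wild type and 5.54 in labelled knockout, and that of Krt20 7.64 and 4.94. Medians for thick ascending limb (5 markers) were -1.05 in wild type and -0.98 in labelled knockout, for distal tubule (4) -1.57 and -0.52, and for collecting duct (8) -0.38 and -0.85. Leukocyte markers (6) summed to between 2.90 and 3.56, a sum carried by Lyz2. Cd68 and Itgam, myeloid markers, stood at 2.80 and 2.07 in wild type and at 1.36 and 0.96 in labelled knockout. The 4 adipocyte markers were all lower by 2-fold in labelled knockout sham than in wild type sham, beside 3.69% of genes. They summed to 4.49, -1.91, 1.87 and -1.03 in the order wild type sham, labelled knockout sham, wild type injured, labelled knockout injured. The 2 erythroid markers summed to 1.88, 4.96, -0.19 and -1.08 in that order. The part of these differences in the results for the 9 genes was not tested.

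Genes most like the 2 extremes were sought by the root mean square distance between log2 profiles centred on their own mean, over 4 arrays and 13947 other genes above background on every array, with predicted genes left out. Nearest to Car4 were Slc34a1 (0.18), Xpnpep2, a membrane aminopeptidase (0.22), and Hsd3b4 (0.22). Nearest to Slc4a4 were Pars2 (0.015), Kbtbd2 (0.025) and Gnmt (0.028), all near -1.43 in wild type and between -0.78 and -0.69 in labelled knockout. Among the 9, Car14 and Slc26a1 were each other's nearest at 0.34, as were Slc9a3 and Aqp1 at 0.36 and Atp1b1 and Slc13a1 at 0.27. With 4 points a profile, such closeness is a description only.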

How the data were processed

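Kidney RNA was labelled with Cy3 and hybridised to 1 array for each of 4 groups, per the labels. The files hold spot intensity as deposited, from Agilent Feature Extraction 10.7.3.1 per the file headers (9.1 per the submitters' processing notes). The authors' value table is on a log2 scale, with column medians of 5.91 to 5.93 and Spearman correlations of at least 0.99998 with the scanner signals. Its scaling is not given in the sources used here, and it served as an alternative.

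From the deposited intensity (gProcessedSignal), log2 minus each array's 75th percentile over 43379 non-control spots was taken in R 4.3.3. Outlier spots were left out and repeated spots averaged, and the brightest probe stood for a gene. All 14 probes had 1 unflagged, unsaturated spot on every array. Probes were named by accession (27649), symbol (5584) or synonym (471) from RefSeq, with the file's name kept for 1264 and 6174 unnamed. Differences are between single arrays, and a gene was compared where well above background on either array (2 of 4 for limma 3.58.1, with lmFit and eBayes). The number of arrays limits the precision, and p-values measure the spread between these arrays only.

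Named genes were every probe of the 9, up to 4 of each list by the gap between the injured arrays, and the 3 nearest genes to the 2 extremes. Of these, 2 list genes are not reported here. The 9 genes and the lists were chosen with earlier results of these data known. Alternatives covered background correction, scaling, the value table, the probe rule, the filter and left-out arrays. Probe positions are mm9 as the files give them. Their exon or UTR annotation was not analysed here.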

Additional observations from a re-analysis of the deposited data

Results flagged for a closer look

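The injury differences of 3 of the 9 genes pointed in opposite directions in the 2 genotypes, each by more than the duplicate-spot SD of 0.15. The labelled knockout minus wild type response was 3.06 for Car14 (-2.73 in wild type, 0.32 in labelled knockout). It was 2.62 for Slc26a1 (-2.34 and 0.27). It was 0.64 for Slc13a1 (-0.32 and 0.32), whose second probe gave -1.08. With 1 array a group, none of these differences was tested. The opposite directions were not kept throughout. With normexp fitted on all spots the labelled knockout differences were -0.24 for Car14, -0.18 for Slc26a1 and -0.19 for Slc13a1. With normexp fitted without flagged spots they were 0.30, 0.37 and 0.36 in that order. The second Slc26a1 probe was lower in both genotypes (-3.60 and -0.14).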

How the results depend on the processing

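Of the values that answer the comparisons, 113 stayed within the spread, or within 1.5 times for counts, under the alternatives and 18 moved. Within that margin, genes lower by 2-fold in wild type went from 6 to 5 with probes averaged, genes higher between injured arrays from 5 to 4 with normexp on all spots, and response differences from 4 to 5 with normexp without flagged spots. Normexp fitted on all spots gave medians for the 9 genes of -0.59 for injury in labelled knockout (3 genes lower by 2-fold), 0.86 between injured arrays and 0.48 for the response difference, and limma called 4461 genes for injury and 99 for genotype. Its fitted background mean was -225 on the labelled knockout injured array and -5.39 to -1.30 on the others. Normexp fitted without flagged spots gave 731 and 128 limma calls, 0 of the 9 lower by 2-fold for injury in labelled knockout and 0 lower between injured arrays, and a response difference of 1.03. The labelled knockout injury median was -0.39 in the authors' value table, and the median between injured arrays was 1.06 with probes averaged. Median scaling gave -0.33 for the sham arrays, with 1 gene lower by 2-fold. Against the wild type sham array, an alternative chosen after seeing the data, 2 genes were lower by 2-fold in labelled knockout. Leaving out 1 array in turn, which also drops the other factor, gave 0 to 786 limma calls for injury (786 without labelled knockout injured) and 0 to 143 for genotype (143 without wild type sham). The cause of these changes was not tested.

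Some fitted effects changed sign. For injury, Atp1b1 (0.04) was -0.34 and -0.05 with the 2 normexp fits, -0.01 with median scaling, -0.54 in the authors' table and -0.19 to 0.27 with 1 array left out. Slc13a1 (0.00) was 0.09 with quantile scaling, 0.07 in the authors' table, 0.57 with probes averaged and -0.18 to 0.17 with 1 array left out. With 1 array left out, Car14 ran from -2.86 to 0.45 and Slc26a1 from -2.27 to 0.20, the highest without wild type injured. For genotype, Slc13a1 (0.03) was -0.07 with normexp on all spots, -0.08 with median scaling and -0.13 to 0.19 with 1 array left out. With 1 array left out, Slc4a4 ran from -0.85 to 0.57, and Car4 from -0.17 to 4.0, Slc26a1 from -0.01 to 2.33 and Aqp1 from -0.51 to 1.80, these 3 lowest without wild type injured.

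Over all genes, the share of lower calls among 2-fold calls went from 50.7% to 37.3% in wild type and from 46.1% to 10.7% (all spots) or 34.8% in labelled knockout under normexp, and in sham kidneys from 40% to 56.8% under normexp, 57.0% with median scaling, 50.4% with quantile scaling and 50.7% in the authors' table. Normexp moved the median of all genes to 0.25 in wild type and the labelled knockout calls from 844 higher and 721 lower to 5011 and 600 (all spots) or 395 and 211. It gave 822 higher and 769 lower between injured arrays on all spots (main 1882 and 1369) and 224 and 294 between sham arrays (main 944 and 629). Requiring signal above background on all 4 arrays gave 469 and 399 there. No paired analysis was possible because each group had 1 array and the labels give no shared replicate numbers. Slide as a block is the same split as genotype: it left the injury fit as it was (0 calls) and could not be fitted for genotype.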
